A study of Homo sapiens with 9 samples.

Results

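A pair of clones labelled as SNAI1-KO derivatives of MDA-MB-231, a triple-negative breast cancer cell line, were compared with each other: 3 libraries titled CS16 and 3 titled CS19, which are 6 of the 9 RNA-seq libraries of the study. The labels give both clones the genotype SNAI1-KO and the other 3 libraries the genotype WT, and no treatment was given to any of them. By the study's methods, each clone was grown from a single cell after transfection with Cas9, a pool of guide plasmids against SNAI1 and repair plasmids, followed by puromycin selection, so that editing and selection were shared by CS16 and CS19 and each stands for 1 clone. The comparison addresses what separates clones that carry the same label, and WT entered none of the tests and is given for reference. The labels number the replicates 1 to 3 but do not say whether they were separate cultures, so p-values measure the spread between these samples, which may be technical.

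SNAI1 encodes a zinc finger repressor that binds E-box sequences in promoters of epithelial genes such as CDH1 and takes part in epithelial-mesenchymal transition. SNAI2, also named SLUG, is its close relative and binds the same letters. A clone grown from 1 cell of a genetically mixed line carries the chromosomes of that cell.

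The clone libraries held between 19527195 and 28627777 counted read pairs, and the mitochondrial genome took 0.338 to 0.498% of the counts in these 6 libraries. In the WT libraries this share was 0.645%, 0.795% and, in WT replicate 2, 2.40%. The cell line label was checked against 22 marker genes of MDA-MB-231, of which 6 had 3 counts or fewer in every clone library. Their summed level was 729 to 828 CPM (counts scaled to a common library size, with TMM factors) in the 6 clone libraries and 16800 to 19500 CPM in WT. CD44, a hyaluronan receptor and a defining surface marker of the line, had 0 counts in 5 of the 6 clone libraries and a mean of 755 ± 150 CPM in WT (SD, n = 3). The summed level and CD44 thus went against the cell line label in both clones. Not every listed marker was near the floor, since VIM stood at 354 ± 16.9 CPM in CS16 and 320 ± 3.94 CPM in CS19. Its WT level was 1040 ± 231 CPM. The study also measured lower CD44 mRNA in its knockout clones by RT-qPCR, which re-expressed SNAI1 did not reverse, and higher SPARC, another listed gene. It ascribes the CD44 change to loss of SNAI1. The origin of the clone libraries was not tested. WT values are therefore printed beside the clones as values of the libraries labelled WT and not as those of a known parent.

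SNAI1 itself was low in all 9 libraries. The CS16 libraries held 26, 40 and 49 SNAI1 counts, or 1.34, 1.99 and 2.04 CPM, and the CS19 libraries held 57, 94 and 94 counts, or 2.76, 4.23 and 3.22 CPM. The WT libraries held 16, 38 and 21 counts, or 0.882, 2.54 and 1.20 CPM, so SNAI1 counts were not lower in the libraries labelled SNAI1-KO than in those labelled WT. A count over the whole gene (chr20:49982980-49988886, GRCh38) does not show which exons the reads came from. The study reported lower SNAI1 mRNA at every exon by RT-qPCR and no detectable SNAI1 protein in either clone. It also reported deletions within the SNAI1 locus from its aligned RNA-seq reads. None of these was examined here. Every CS16 library lay below every CS19 library, with a log2 fold change of CS16 over CS19 of -0.92 (SE 0.24, edgeR quasi-likelihood adjusted p = 0.0106). This difference did not pass when WT shared the fit (edgeR quasi-likelihood adjusted p = 0.271).

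SNAI2 had the largest log2 fold change in size of the 16 genes tested out of a fixed set of 17 genes of interest. It stood at 81.7, 75.8 and 74.1 CPM in CS16, at 3.39, 5.26 and 2.74 CPM in CS19 and at 39.5, 29.2 and 43.7 CPM in WT. The clones thus lay on opposite sides of all 3 WT libraries, CS16 above and CS19 below. The log2 fold change was 4.36 (SE 0.16, edgeR quasi-likelihood adjusted p = 8.91e-10), and it stayed between 4.16 and 4.68 when any 1 library was left out.

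Across the transcriptome, 198 of 17538 genes tested passed the study's cut-offs of a log2 fold change of at least 2 and an adjusted p below 0.05 (called genes, 1.13% of genes tested). Of these, 87 were higher in CS19 (0.496% of genes tested) and all others were higher in CS16 (0.633%). Without the fold cut-off, 4814 genes passed an adjusted p of 0.05 (27.4%), with 2581 higher in CS16 (14.7%) and 2233 higher in CS19 (12.7%). Most of these differences were small, since the median size of the log2 fold change over all genes tested was 0.22 and 833 genes passed with a log2 fold change of at least 1. The largest differences leaned to CS16, with 34 genes at least 16-fold higher there against 3 genes in CS19. Many called genes were low, with a median in the higher clone of 2.57 CPM for CS16 and 4.22 CPM for CS19. Among called genes of at least 10 CPM in the higher clone, 20 were higher in CS16 and 26 in CS19. The largest log2 fold changes there were 4.36 and 5 in size, so the lean did not hold at that level. Of all genes tested, 41.1% did not overlap between the clone libraries. Among the called genes, where the cut-offs nearly fix this beforehand, PTMAP4 was the 1 that overlapped. PTMAP4, a pseudogene named here after its values were seen, read 7.78, 1.84 and 7.17 CPM in CS16 and 0.775, 2.11 and 0.514 CPM in CS19, and its log2 fold change of 2.34 went to 1.94 without CS19 replicate 3. Of the called genes, 173 were protein coding (87.4%, against 76.1% of genes tested). In 102 the span, introns included, overlapped that of a gene on the other strand, and the share over all genes tested was not taken. Counting ignored strand, so reads from exons that both genes share could not be told apart.

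**Figure D1:**
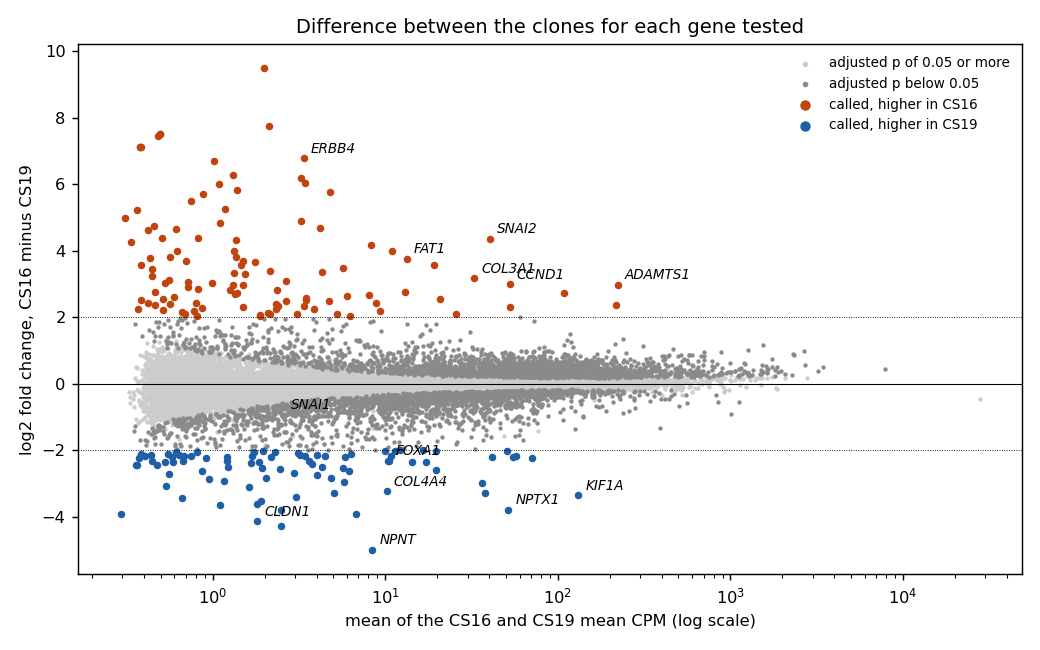
Each point is 1 of the 17538 genes tested, placed by its mean CPM over both clones (log axis) and by its log2 fold change of CS16 over CS19. Red points are the called genes higher in CS16 and blue points the 87 higher in CS19, beyond the dotted lines at a log2 fold change of 2, and SNAI2 and ADAMTS1 stand among the more abundant ones.

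Genes of varied function stood among the 12 called genes with the smallest p that were higher in CS16. ADAMTS1, a secreted metalloprotease that cuts proteoglycans, was measured at 402, 414 and 372 CPM in CS16 against 50.8, 47.0 and 52.9 CPM in CS19 (log2 fold change 2.98, SE 0.07). COL3A1, the chain of fibrillar type III collagen, read 57.9, 61.7 and 57.8 CPM in CS16 and 7.61, 5.94 and 6.21 CPM in CS19 (3.17, SE 0.10). Both were lower in WT than in either clone, with WT means of 23.2 ± 3.46 and 0.678 ± 0.214 CPM (SD, n = 3). Cyclin D1 (CCND1), which drives entry into the cell cycle with CDK4 and CDK6, stood at 100, 90.5 and 89.3 CPM in CS16 and at 12.7, 12.1 and 10.6 CPM in CS19 (2.99, SE 0.09). Here WT was far above both clones, at 781, 1260 and 853 CPM, and CS16 lay nearer to it.

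FAT1, a giant cadherin of the cell surface, showed the same order as CCND1, with 27.0, 22.3 and 25.2 CPM in CS16, 2.13, 1.71 and 1.68 CPM in CS19 and a WT mean of 1650 ± 155 CPM (SD, n = 3). Its log2 fold change between the clones was 3.76 (SE 0.13). AMOT, which encodes the angiomotin that holds YAP at cell junctions, read 379, 351 and 355 CPM in CS16 and 77.3, 68.3 and 65.4 CPM in CS19, and was at or below 0.200 CPM in each WT library. The forkhead factor FOXO4 (87.3 ± 1.92 against 17.8 ± 0.853 CPM, SD, n = 3), the axonal protein DPYSL3 (35.6 ± 0.270 against 2.98 ± 0.404 CPM) and MICU2, a regulator of the mitochondrial calcium uniporter (35.6 ± 0.424 against 6.07 ± 0.432 CPM), were also among the 12 called genes with the smallest p in this direction. So were CA8 and CA2, of the carbonic anhydrase family, and LRATD2, with log2 fold changes of 3.98, 2.72 and 4.16.

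The 12 called genes with the smallest p that were higher in CS19 were as varied. KIF1A, a kinesin that carries synaptic vesicle precursors along axons, stood at 23.7, 19.9 and 26.5 CPM in CS16 and at 235, 260 and 221 CPM in CS19 (log2 fold change -3.35, SE 0.10). NPTX1, a secreted pentraxin of synapses, read 5.77, 7.45 and 7.55 CPM in CS16 and 94.2, 102 and 93.6 CPM in CS19 (-3.79, SE 0.10). NELL2, a ligand for axon guidance receptors, had means of 20.8 ± 1.31 and 94.3 ± 4.23 CPM (SD, n = 3). These 3 genes were at or below 0.334 CPM in every WT library, so each was above WT in both clones and further above it in CS19.

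GLDC, the decarboxylase of the glycine cleavage system, was measured at 7.31, 7.84 and 9.01 CPM in CS16 and at 66.1, 65.7 and 62.5 CPM in CS19 (-3.0, SE 0.09). GPC3, a glypican known as an oncofetal protein of liver, read 20.9, 19.8 and 18.1 CPM against 87.7, 88.9 and 95.8 CPM, with 0 counts in all 3 WT libraries. NPNT, the matrix protein nephronectin, gave the largest log2 fold change of the genes with the smallest p in this direction, -5.0 (SE 0.21), from 0.257, 0.496 and 0.709 CPM in CS16 to 15.1, 18.1 and 15.6 CPM in CS19. WSCD1 (-3.29), LONRF2 (-2.23), the lipid transporter ABCA3 (-2.21), the sialomucin PODXL (-2.01), MAP3K15 (-2.34) and COL4A4 (-3.23) completed the 12 with the smallest p. PODXL sat at the fold cut-off and its log2 fold change was -1.97, -1.99 or -1.93 without CS16 replicate 1, CS16 replicate 3 or CS19 replicate 2.

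**Figure D2:**
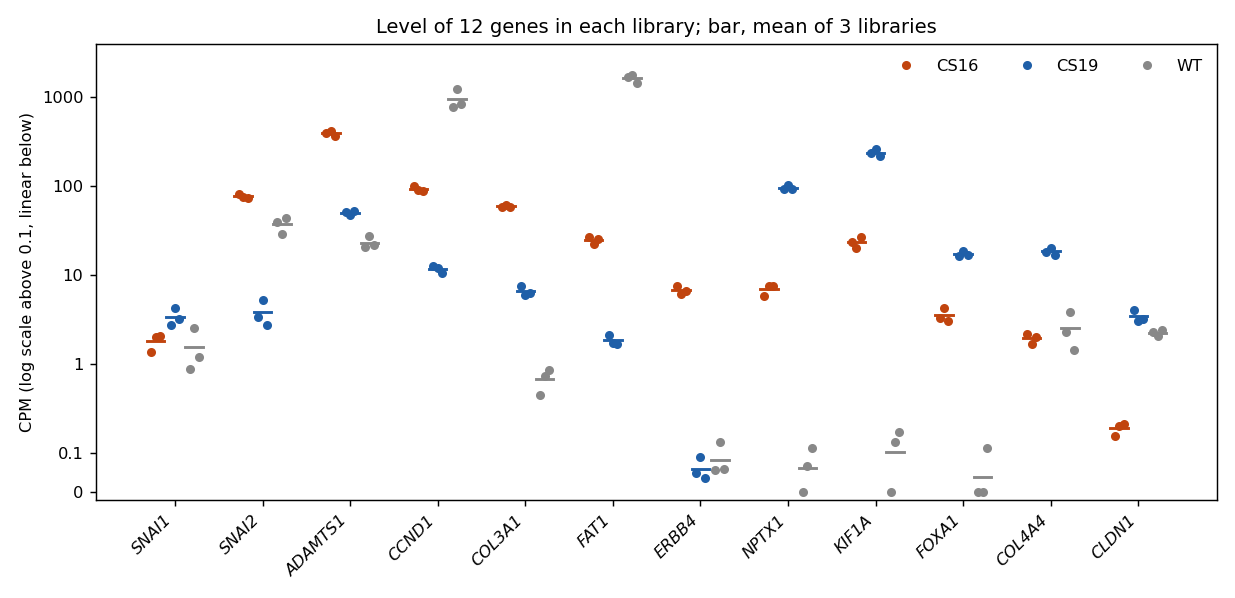
CPM of 12 genes in each of the 9 libraries (vertical axis logarithmic above 0.1 and linear below), with a bar at the mean of 3 libraries in red for CS16, blue for CS19 and grey for WT. The red and blue points do not overlap in any of the 12 genes, and WT lies between the clones for SNAI2 and CLDN1, above both for CCND1 and FAT1, and near 0 CPM for NPTX1, KIF1A and FOXA1.

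WT did not lie between the clones for most called genes. The WT mean was below both clone means for 95 of the 198 genes, above both for 56 and between them for 47. In 74 called genes every WT library had 3 counts or fewer, 46 of them higher in CS16 and 28 higher in CS19. These counts were taken among called genes only, with no share over all genes tested, and are a description. For CCND1 and FAT1 both clones were thus below WT, and for NPTX1 and KIF1A both were above it.

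A set of 14 called genes had at least 1 CPM in each CS16 library and 3 counts or fewer in each CS19 library, and no gene met the same limits the other way round. ERBB4, a receptor of the EGF receptor family that binds neuregulins, led them with 144, 123 and 158 counts in CS16 and 1, 2 and 1 counts in CS19. Against the floor of 3 counts in each CS19 library it was at least 52.5-fold higher in CS16. SMPX, a small muscle protein, had 121, 129 and 160 counts against 3, 3 and 0 and was at least 50.4-fold higher. SPOCK3, a matrix proteoglycan, had 86, 74 and 93 counts in CS16, 0 in each of the 3 CS19 libraries, and 48, 14 and 62 in WT, and was at least 31.3-fold higher in CS16 than in CS19. The WNT receptor FZD10 (45, 55 and 46 counts against 1, 0 and 3), the nuclear receptor RORB (46, 63 and 63 against 2, 1 and 0) and butyrylcholinesterase, BCHE (39, 45 and 52 against 0, 2 and 0), belonged to the same set. So did the antisense RNA PHEX-AS1, TPTEP1, AFF2 and ZNF804A, while SHANK2, TNMD, PTPRO and TCIM had lower CPM. In 8 of the 14 genes all WT libraries were at 3 counts or fewer too. SHANK2, a scaffold of synapses, was the most abundant of the 14 in WT, with 305, 1090 and 254 counts there against 39, 35 and 35 in CS16 and 0, 1 and 1 in CS19. The floor of 3 counts came to 0.103 to 0.154 CPM in the clone libraries, and it covers counting error only.

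Genes of epithelial-mesenchymal transition did not follow 1 direction. Of 14 transcription factors listed for it, 12 were tested and 7 passed an adjusted p of 0.05 (4 higher in CS16, 3 higher in CS19, median log2 fold change 0.09), where SNAI2 was the only called gene. ZEB2, a repressor that shares the E-box letters of the SNAI factors, was higher in CS16 (34.7 ± 3.05 against 24.3 ± 1.34 CPM, SD, n = 3, log2 fold change 0.51), and so were TCF4 (0.50) and TWIST1 (0.79). SNAI3, the remaining family member, was higher in CS19 like SNAI1 (2.25 ± 0.529 against 4.20 ± 0.681 CPM, log2 fold change -0.88). ZEB1 stood at 50.4 ± 6.54 and 48.8 ± 2.60 CPM (SD, n = 3) and did not pass the test (edgeR quasi-likelihood adjusted p = 0.768).

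Among 24 mesenchymal genes tested, 8 were higher in CS16 and 8 higher in CS19 at an adjusted p of 0.05. LUM, the proteoglycan lumican, and TNC, the matrix protein tenascin C, were the 2 called members, both higher in CS16 with log2 fold changes of 3.31 and 2.98. Fibronectin (FN1) did not overlap between the clones either (106 to 125 CPM in CS16 against 29 to 34.2 CPM in CS19, n = 3, log2 fold change 1.88, SE 0.09), and it lay just short of the fold cut-off. N-cadherin (CDH2) went the other way, with 34.5, 32.4 and 32.9 CPM in CS16 and 79.5, 88.5 and 92.4 CPM in CS19 (-1.38, SE 0.08). Vimentin (VIM), at 354 ± 16.9 and 320 ± 3.94 CPM, did not pass (edgeR quasi-likelihood adjusted p = 0.112).

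Of 21 epithelial genes tested, 10 were higher in CS19 and 1 in CS16 at an adjusted p of 0.05, with a list median of -0.24 beside a median of -0.02 over all genes tested. The called member was CLDN1, a claudin of tight junctions, with 0.154, 0.199 and 0.209 CPM in CS16, 4.02, 3.06 and 3.22 CPM in CS19 and 2.26, 2.07 and 2.40 CPM in WT (log2 fold change -4.14, SE 0.31). The desmosomal plakophilin PKP2 (-1.31), the tight junction genes OCLN (-0.62) and F11R (-0.67) moved with it at smaller size, and KRT8, a keratin, was the member higher in CS16 (3.0 ± 0.869 against 1.80 ± 0.120 CPM, SD, n = 3), which did not pass without CS16 replicate 3 (0.49), CS19 replicate 1 (0.71) or CS19 replicate 3 (0.74). When WT shared the fit, 30 epithelial genes were tested and 3 passed as higher in CS19. E-cadherin (CDH1) did not pass, at 4.74, 3.62 and 3.54 CPM in CS16 and 4.22, 4.32 and 4.42 CPM in CS19 (-0.13, SE 0.17, edgeR quasi-likelihood adjusted p = 0.622). The clones overlapped for CDH1 and differed more than 10-fold for CLDN1.

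FOXA1, a pioneer factor of luminal breast cells, was higher in CS19. It stood at 3.24, 4.27 and 3.0 CPM in CS16 and at 16.3, 18.8 and 16.9 CPM in CS19, and at 0, 0 and 0.114 CPM in WT. The log2 fold change between the clones was -2.31 (SE 0.14, edgeR quasi-likelihood adjusted p = 1.03e-07). TFAP2A, the transcription factor AP-2 alpha, was the called member of the 15 luminal genes tested that was higher in CS16 (5.98 ± 1.09 against 1.02 ± 0.207 CPM, SD, n = 3).

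No stem cell gene of the 16 tested was called, and 5 were past an adjusted p of 0.05 in each direction. SOX2 was measured at 15.3 ± 1.52 and 14.7 ± 1.21 CPM (log2 fold change 0.06, SE 0.11) and ALDH1A1 at 1.43 ± 0.155 and 1.46 ± 0.298 CPM (-0.03, SE 0.26) each over 3 libraries, and neither passed the test, nor did ID2 (-0.11, SE 0.07). KIT (-0.49, SE 0.08), SOX9 (-0.57, SE 0.13) and the type II TGF-beta receptor TGFBR2 (-0.65, SE 0.14) passed at an adjusted p of 0.05 and were higher in CS19. LIN28B, an RNA-binding protein of embryonic cells, was higher in CS16 (241 ± 7.97 against 140 ± 8.87 CPM).

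Matrix and adhesion genes split by chain and family member. Of 33 collagen chains tested, COL3A1 and COL23A1 were called higher in CS16, and COL4A3 and COL4A4, the paired basement membrane chains whose genes lie head to head, were called higher in CS19. COL4A4 read 2.16, 1.69 and 2.00 CPM in CS16 and 18.0, 20.3 and 16.9 CPM in CS19, and COL4A3 read 0.36, 0.298 and 0.334 CPM and 5.77, 4.0 and 4.18 CPM. Among 29 cadherins outside the clustered protocadherins, 4 were called and all 4 were higher in CS16, namely FAT1, PCDH10 (2.42), PCDH17 (3.69) and CDH7, which had 0 counts in each CS19 library and 0.994 ± 0.239 CPM in CS16. At an adjusted p of 0.05 the same list split evenly, 9 to 9. Of 22 integrins tested, 3 were higher in CS16 and 7 in CS19, among them the laminin receptor chains ITGA6 (-1.09) and ITGA7 (-1.23). ADAMTS2 (2.09) was called in the direction of ADAMTS1, and ADAMTS8 (-2.83) against it.

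Ligand and receptor genes were past an adjusted p of 0.05 in both directions. For EGF, FGF and PDGF receptors and ligands 13 of 35 tested were higher in CS16 and 8 in CS19, beside 14.7% and 12.7% of all genes tested. Of the 27 outside the chromosomal runs described below, 9 were higher in CS16 and 8 in CS19. ERBB4 and FGF13 (6.29 ± 0.124 against 0.198 ± 0.129 CPM, SD, n = 3) were called higher in CS16. FGF13 is listed by its family name and not as a known receptor ligand. ERBB3, the kinase-poor partner of ERBB2, was higher in CS19 (-1.46, SE 0.23). BMP2, a bone morphogenetic protein, was the called member of the TGF-beta, BMP and activin list, with 3.24, 2.28 and 2.04 CPM in CS16 and 0, 0.180 and 0.240 CPM in CS19. In the WNT list FZD10 was called higher in CS16 and the secreted inhibitor SFRP5 higher in CS19 (-2.18). Axon guidance genes gave 17 higher in CS16 and 16 higher in CS19 of 65 tested, with UNC5C (2.09) and EPHB6 (2.38, and 1.90 without CS19 replicate 1) called one way and EPHA10 (-3.29) and SLIT1 (-2.19) called the other. GFRA1, a co-receptor for GDNF, was higher in CS19 (3.47 ± 0.161 against 17.5 ± 0.562 CPM). Of 27 RAS-MAPK feedback and immediate early genes, 10 were higher in CS16 and 1 in CS19. The former included MYC (log2 fold change 0.65, SE 0.09) and the phosphatase DUSP1 (0.72), which lies in the run on chromosome 5. Of the 23 outside the runs, 7 were higher in CS16 and 1 in CS19.

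Other transcription factors also divided the clones. The nuclear receptors ESRRG (8.02 ± 0.504 against 0.337 ± 0.257 CPM, SD, n = 3) and RORB were called higher in CS16, and their relative ESRRB was called higher in CS19 (1.20 ± 0.263 against 5.06 ± 0.702 CPM), with a log2 fold change of -1.95 or -1.97 without CS16 replicate 1 or CS19 replicate 1. Of 35 HOX genes tested, which set position along the body axis, 11 were higher in CS19 and 3 in CS16 at an adjusted p of 0.05, with a median of -0.20. HOXA5 stood at 20.8, 20.8 and 21.2 CPM in CS16 and at 55.2, 51.8 and 58.9 CPM in CS19 (-1.40, SE 0.08), and HOXA9 at 38.7 ± 1.27 and 77.7 ± 4.90 CPM. SOX21 was called higher in CS19 (-2.31).

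A pair of large gene families differed as a whole by small amounts in opposite directions. Of 79 cytosolic ribosomal protein genes tested, 51 were higher in CS16 and 0 in CS19 at an adjusted p of 0.05, with a median log2 fold change of 0.34, and no member was called. Without CS16 replicate 2, 3 of them passed as higher in CS19, and 1 without CS19 replicate 2. RPL37 read 1070, 1240 and 1180 CPM in CS16 and 582, 599 and 633 CPM in CS19 (0.94, SE 0.08), and RPL22L1 read 260 ± 14.9 and 131 ± 10.0 CPM (SD, n = 3). The summed level of the 82 listed genes was 74700 to 80400 CPM in CS16 and 56400 to 61100 CPM in CS19, without overlap. In the fit with WT as a further group 1 of the 79 genes passed, while the median was 0.34 there too.

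Of 405 C2H2 zinc finger genes named ZNF, most of which encode KRAB-type repressors, 130 were higher in CS19 and 18 in CS16 (11 without CS19 replicate 3), with a median of -0.17. The 6 called members did not follow that direction, since ZNF85, ZNF726, ZNF563 and ZNF737 were higher in CS16 and ZNF528 and ZNF229 higher in CS19. ZNF737 went to 1.94 or 1.98 without CS16 replicate 3 or CS19 replicate 1, and ZNF229 to between -1.95 and -1.81 without CS16 replicate 1, CS16 replicate 3 or CS19 replicate 2. When WT shared the fit, 17 ZNF genes passed as higher in CS19. ZNF528 was measured at 0.412, 0.596 and 0.584 CPM in CS16 and at 2.71, 2.7 and 3.02 CPM in CS19. ZNF85 had 0 counts in each CS19 library and 0.721, 0.645 and 0.917 CPM in CS16, against 18.8 ± 3.47 CPM in WT (SD, n = 3). The medians of both families kept their sign under each of the other 13 fits, where they lay between 0.310 and 0.384 for the ribosomal protein genes and between -0.193 and -0.141 for the ZNF genes.

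Metabolic and immune lists were mixed. Of 29 cholesterol and fatty acid synthesis genes, 13 were higher in CS19 and 4 in CS16 (2 without CS16 replicate 1), with SC5D, the lathosterol oxidase, at 224 ± 6.76 against 560 ± 15.9 CPM (SD, n = 3, log2 fold change -1.32) and FADS2 at -1.08. Of 33 glycolysis and hypoxia genes, 12 were higher in CS16 and 4 in CS19. The 12 became 7 without CS16 replicate 3, 7 without CS19 replicate 1 and 6 without CS19 replicate 3, and 0 when WT shared the fit. The called one was the neuronal enolase ENO2, higher in CS19 (-2.55). Of 25 interferon-stimulated genes, 9 were higher in CS19 (5 without CS19 replicate 3) and 3 in CS16, with USP18 (-1.20) and HERC5 (-0.73) among them. For 50 cell cycle genes the share past an adjusted p of 0.05 was 26.0%, near the background, and CCND1 was the called member. These were 8 higher in CS16 (5 without CS19 replicate 3) and 5 higher in CS19 (8 without CS16 replicate 2). For the 13 protein-coding genes of the mitochondrial genome, MT-ND5 passed (0.48, SE 0.11), and without CS16 replicate 3 there were 6 that passed as higher in CS16.

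Each of the following lists held at most 2 called genes, counts too small to compare with the 1.13% called of all genes tested. Among 77 potassium, sodium and calcium channel genes tested, 13 were higher in CS16 (8 without CS16 replicate 1 or without CS19 replicate 3) and 18 in CS19, and KCNJ11 was called. Of 17 glutamate, GABA and glycine receptor genes, GABRQ was called higher in CS16 (1.02 ± 0.362 against 0.104 ± 0.0636 CPM, SD, n = 3), and 1 gene was higher in CS16 and 5 in CS19 at an adjusted p of 0.05. Of 39 synaptic and neuronal genes, 8 were higher in CS16 and 7 in CS19, and SHANK2, higher in CS16, was the called member. PDE1C (2.98) and PDE3A (2.26), phosphodiesterases that break down cyclic nucleotides, were called higher in CS16 among 64 genes of cyclic AMP and G protein signalling, which gave 15 higher in CS16 and 11 in CS19 (7 without CS16 replicate 1). For 26 Notch pathway genes the counts were 3 and 5, with the ligand JAG2 (-0.91) among the latter, and for 43 replication-dependent histone genes they were 4 and 6, a share of 23.3% beside 27.4% of all genes tested. The histone counts rested on single libraries, with 15 higher in CS19 without CS16 replicate 2 and 1 higher in CS16 without CS16 replicate 3 or without CS19 replicate 1. Of 21 MHC genes 4 passed in each direction (2 as higher in CS16 without CS16 replicate 3), and of 17 laminins and basement membrane genes LAMA2 was called higher in CS16 (0.801 ± 0.191 against 0.121 ± 0.0807 CPM).

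Markers of other cell types were checked list by list. HCLS1, of the haematopoietic list, was called (9.45 ± 0.772 CPM in CS16 against 0.175 ± 0.197 in CS19 and 1.34 ± 0.137 in WT, SD, n = 3), while 10 of the 23 listed genes were at 3 counts or fewer in every clone library. The summed level of that list was 19.0 to 20.4 CPM in CS16 and 10.6 to 11.9 CPM in CS19. For the fibroblast and muscle list, which holds COL3A1 and LUM, the sums were 92.4 to 94.5 and 34.8 to 41.7 CPM. COL3A1 alone had means of 59.1 and 6.58 CPM, and the median log2 fold change of the list was -0.002. For the endothelial list, where FLT1 was higher in CS16 (1.79) and ESAM higher in CS19 (-0.79), the sums were 41.0 to 47.1 and 21.5 to 27.7 CPM. FLT1 alone had means of 30.4 and 8.83 CPM, and the median of that list was -0.09. The melanocyte and neural crest list summed to 33.5 to 36.8 and 37.4 to 40.0 CPM, and the hepatocyte and intestine list, in which CDX2 was the single gene tested, to 29.7 to 30.3 and 23.9 to 25.5 CPM. Of these 4 lists, 7 of 17, 4 of 13, 3 of 13 and 9 of 16 genes were at 3 counts or fewer in every clone library. ESAM did not pass without CS16 replicate 2 (-0.68), CS16 replicate 3 (-0.73), CS19 replicate 1 (-0.62) or CS19 replicate 3 (-0.80), nor CDX2 without CS19 replicate 3 (0.30). The part of other cell types in the differences was not tested.

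Differences between the clones were not spread evenly over the chromosomes. Genes with a mean of at least 5 CPM were taken in order along each chromosome in 209 windows of about 50 genes, and 20 windows had a median log2 fold change of at least 0.3 in size, all of them higher in CS16. They formed 5 runs. All 10 windows of chromosome 5 belonged to the set, with medians from 0.388 to 0.601, and 465 of its 501 genes at this level were higher in CS16 (92.8%). The end of the long arm of chromosome 1 (chr1:193012250-248919946, 4 windows, 220 genes) had a median of 0.382, and the end of the long arm of chromosome 6 (chr6:111555381-170584692, 3 windows, 150 genes) a median of 0.504. On chromosome 13 the first 2 windows (chr13:19633659-49495003, 100 genes) had a median of 0.616, with 97 of 100 genes higher in CS16, and 1 window of chromosome 15 (chr15:74890005-82540459) had 0.311.

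The runs ended within 1 window on chromosomes 1, 6 and 13. On chromosome 1 the window before the run had a median of -0.03 and the first window inside it 0.340, and on chromosome 6 the values were 0.02 and 0.491. On chromosome 13 the median dropped from 0.542 to 0.10 in the next window, which held the 98 remaining genes. On chromosome 15 the medians went from -0.02 to 0.275 a window before the described one, and the window after it had 0.200, so the higher stretch extended past the limit of 0.3 on both sides. The 5 runs corresponded to fold differences of 1.24 to 1.53 in the median gene.

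Each library showed the pattern. The runs were picked by the fold change between these same 6 libraries, so the sign of the values below was largely fixed beforehand. The median deviation of chromosome 5 genes from their mean over the 6 clone libraries, relative to all genes at this level, was 0.226, 0.249 and 0.202 on the log2 scale in CS16 and -0.236, -0.243 and -0.208 in CS19. For the run on chromosome 13 it was 0.305, 0.291 and 0.268 in CS16 and -0.339, -0.302 and -0.270 in CS19. Inside the 5 runs lay 1587 genes tested, 9.05% of all, of which 939 passed an adjusted p of 0.05 (59.2%) and 877 of those were higher in CS16. Picking the runs by fold change raises this share and favours CS16 inside the runs. Outside them, 3875 of 15951 genes passed (24.3%), 1704 higher in CS16 and 2171 higher in CS19. DNA was not analysed here, and what underlies the runs was not tested.

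Called genes lay inside the runs about as often as elsewhere. The runs held 15 of them (0.945% of genes tested inside, beside 1.13% of all), 13 higher in CS16 and 2 higher in CS19, and 183 lay outside (1.15%), 98 and 85. Members inside included DPYSL3 and ADAMTS2 on chromosome 5, ESRRG and PROX1 on chromosome 1, ROS1, LAMA2 and RAB32 on chromosome 6, and MICU2 and TRPC4 on chromosome 13. The 2 called genes inside that were higher in CS19 were SUSD4 (0.681 ± 0.574 against 2.81 ± 0.552 CPM, SD, n = 3) and NKAIN2 (0.111 ± 0.126 against 0.614 ± 0.0945 CPM). Calls near the fold cut-off rested on single libraries here, since SUSD4 went to between -1.93 and -1.67 without CS16 replicate 1, CS16 replicate 3 or CS19 replicate 2, NKAIN2 to -1.92 without CS16 replicate 1, and PROX1 to 1.94 or 1.90 without CS16 replicate 1 or CS19 replicate 3. Of the 79 ribosomal protein genes 7 lay inside, RPL37 among them, and of the 72 outside 44 were higher in CS16 and 0 in CS19, with a median of 0.31. The 4 clustered protocadherin genes tested all lay on chromosome 5, where PCDHGA11 (1.13) and PCDHGC4 (1.10, and 0.97 with no pass without CS19 replicate 3) were higher in CS16. Chromosome X had the highest share of called genes, 24 of 567 (4.23%, 16 higher in CS16 and 8 in CS19), with a chromosome median of 0.02.

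Because SNAI2 differed between the clones, promoters were searched for the letters that SNAI factors are known to bind, the E-box CAGGTG on either strand (CACCTG on the other). The window ran from 250 bases before to 50 bases after the start of the main transcript, and it was found for 17501 of the 17538 genes tested (99.8%). Among genes called higher in CS19, 35 of 86 windows held a match (40.7%), and among genes called higher in CS16, 9 did (8.11%), against 19.2% over all genes tested. At least 2 matches stood in 10.5% of the first set, in 0% of the other and in 2.81% of all. GC content was 67.3% and 62.3% in the medians of the 2 sets and 64.7% over all genes tested.

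Promoters of 4 genes higher in CS19 that hold the letters and of 2 genes higher in CS16 in which they are not in the window are printed here as RefSeq gives them (GRCh38.p14), 5′ to 3′ along the gene, with the matches in capitals. FOXA1 (chr14:37595200-37595499, minus strand) has its match 122 bases before the start site, LONRF2 (chr2:100322452-100322751, minus strand) has matches 103 and 60 bases before it, COL4A4 (chr2:227164156-227164455, minus strand) has its match 210 bases before it and GLDC (chr9:6645680-6645979, minus strand) has its match 13 bases after it. ERBB4 (chr2:212538753-212539052, minus strand) and FAT1 (chr4:186726647-186726946, minus strand) are the contrast.
FOXA1: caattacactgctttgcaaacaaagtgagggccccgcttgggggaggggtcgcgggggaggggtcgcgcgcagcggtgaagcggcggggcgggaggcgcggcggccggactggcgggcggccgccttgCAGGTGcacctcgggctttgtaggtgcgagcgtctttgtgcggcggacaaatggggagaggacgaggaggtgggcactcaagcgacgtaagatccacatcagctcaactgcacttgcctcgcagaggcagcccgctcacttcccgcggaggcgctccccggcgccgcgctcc
LONRF2: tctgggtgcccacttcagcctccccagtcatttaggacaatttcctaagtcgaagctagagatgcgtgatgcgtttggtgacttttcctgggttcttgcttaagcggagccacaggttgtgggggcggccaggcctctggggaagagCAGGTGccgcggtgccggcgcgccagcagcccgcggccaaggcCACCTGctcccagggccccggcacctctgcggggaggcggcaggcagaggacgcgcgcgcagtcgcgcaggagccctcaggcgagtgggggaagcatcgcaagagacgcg
COL4A4: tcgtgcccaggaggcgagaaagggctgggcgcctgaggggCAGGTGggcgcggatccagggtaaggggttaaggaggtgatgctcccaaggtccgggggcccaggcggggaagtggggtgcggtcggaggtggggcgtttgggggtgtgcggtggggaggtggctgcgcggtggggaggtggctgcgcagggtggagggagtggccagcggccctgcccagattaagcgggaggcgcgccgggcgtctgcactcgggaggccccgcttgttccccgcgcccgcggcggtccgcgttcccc
GLDC: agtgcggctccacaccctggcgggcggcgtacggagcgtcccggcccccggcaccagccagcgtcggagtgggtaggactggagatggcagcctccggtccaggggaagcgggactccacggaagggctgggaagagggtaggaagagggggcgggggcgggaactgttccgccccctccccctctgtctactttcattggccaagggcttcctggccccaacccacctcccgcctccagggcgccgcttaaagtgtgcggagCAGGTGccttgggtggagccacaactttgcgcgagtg
ERBB4: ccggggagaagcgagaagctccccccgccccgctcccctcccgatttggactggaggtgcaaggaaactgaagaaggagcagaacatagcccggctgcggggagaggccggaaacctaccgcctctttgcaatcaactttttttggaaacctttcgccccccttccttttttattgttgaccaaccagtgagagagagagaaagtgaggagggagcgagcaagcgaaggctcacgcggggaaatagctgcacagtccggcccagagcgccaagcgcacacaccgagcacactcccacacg
FAT1: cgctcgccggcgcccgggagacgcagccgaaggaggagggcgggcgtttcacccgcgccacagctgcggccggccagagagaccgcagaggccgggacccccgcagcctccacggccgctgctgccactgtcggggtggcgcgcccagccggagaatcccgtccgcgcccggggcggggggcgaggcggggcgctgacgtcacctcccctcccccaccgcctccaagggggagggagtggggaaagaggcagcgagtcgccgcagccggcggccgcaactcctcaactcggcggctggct

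Other matches among genes higher in CS19 were found in promoters of COL4A3, which shares its region with COL4A4, of the kinase gene SYK (5.59 ± 0.431 against 33.7 ± 4.07 CPM, SD, n = 3), of the potassium channel gene KCNJ11 with 3 matches (log2 fold change -2.01, and between -2.0 and -1.93 without CS16 replicate 1, CS16 replicate 3, CS19 replicate 1 or CS19 replicate 2), of CAMK2B, a calcium-dependent kinase of neurons, with 3 matches (0.853 ± 0.30 against 12.8 ± 2.75 CPM), of the polarity gene PARD6A (0.595 ± 0.119 against 3.12 ± 0.542 CPM) and of the fatty acid transporter SLC27A2 with 2 matches (5.66 ± 0.393 against 29 ± 2.61 CPM). The starts of COL4A3 and COL4A4 lie close together, so the same letters may have been counted for both genes. SYK, CAMK2B, PARD6A and SLC27A2 were named after their values were seen. KIF1A, WSCD1 and NPTX1, among the genes highest in CS19, had no match in these windows. The 9 genes higher in CS16 with a match included LUM, FGF13, PDE1C and SHANK2.

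The share of windows with a match went down stepwise with the fold change over all genes tested, not only over those called. It was 40.7% at a log2 fold change of up to -2, 30.8% from there to -1, 25.7% from -1 to -0.5, 19.8% from -0.5 to 0, 16.9% from 0 to 0.5, 15.7% from 0.5 to 1, 14.6% from 1 to 2 and 8.11% above 2. Among genes with a mean of at least 5 CPM it went from 48.3% (14 of 29 genes) to 0% (0 of 21 genes). Median GC content also fell along these bins, though not at every step. Over all genes tested it was 67.3% in the first bin, 58.7% from 1 to 2 and 62.3% above 2. Among genes with a mean of at least 5 CPM the same bins had 70%, 61.3% and 64.7%. The part of GC content in the shares was not tested. The other 9 E-box classes were counted in the called genes and over all genes tested, but not in bins of fold change. CAGCTG stood in 14.0% of windows higher in CS19 and 21.6% of those higher in CS16, against 16.1% over all genes tested. For CACGTG, known for binding by MYC and MAX, the shares were 4.65% and 2.7%, both below the 9.05% over all genes tested. The largest gap among those 9 was that of CAAGTG, with 16.3% and 7.21%, against 9.73% over all genes tested.

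Other letters were more frequent in the same windows too. Of all 2080 words of 6 letters, counted with their reverse complements, CAGGTG had the third largest excess in genes higher in CS19 over all genes tested, 21.5 percentage points. CAGGGC had more, at 58.1% of windows against 33.4%, and ACCTGC, which overlaps CACCTG by 5 letters, stood at 40.7% against 17.1%. Words of C and G stood high too, such as GCCCCC at 65.1% against 49.1%. By shortfall in genes higher in CS16, CAGGTG had rank 22. A match is a description of letters and not of binding. Of the factors known for these letters, SNAI2 and ZEB2 were higher in CS16, SNAI1 and SNAI3 were higher in CS19 and ZEB1 did not pass, and the part of any of them was not tested.

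**Figure D3:**
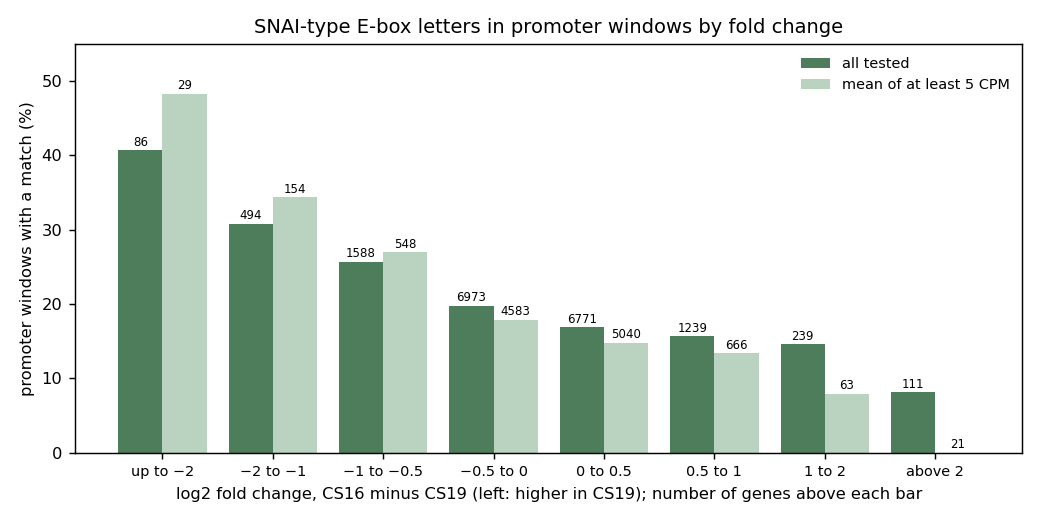
Percent of promoter windows that hold CAGGTG or CACCTG in bins of log2 fold change, from genes higher in CS19 (left) to genes higher in CS16 (right), for all genes tested (dark) and for genes with a mean of at least 5 CPM (light), with the number of genes above each bar. The dark bars step down from 40.7% to 8.11% and the light bars from 48.3% to 0%.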

How the data were processed

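RNA was extracted from 9 samples labelled CS16, CS19 or WT (3 libraries each), depleted of ribosomal RNA and sequenced in pairs with a kit that marks strand. Per the file headers, the authors counted read pairs per gene with featureCounts 2.0.0 on GENCODE 38 without using strand, with both ends mapped and a mapping quality of at least 30, and the deposited files hold these raw counts. The submitters' processing notes also name Trimmomatic 0.36, STAR 2.7.2b and GRCh38.p13. Symbols came from GENCODE 44 and matched 99.6% of 60708 genes, and no row named anything but a gene.

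From the counts, CS16 was tested against CS19 with edgeR 4.0.16 (R 4.3.3) in the 6 clone libraries alone, using filterByExpr, TMM and the quasi-likelihood test with Benjamini-Hochberg adjustment over 17538 genes. Genes with an adjusted p below 0.05 were called where the log2 fold change reached 2 in size. The study used DESeq2, run here as an alternative (1.42.0), as were other scalings, filters and fits, leaving out each library, and a block on replicate number. CPM of WT was scaled to the same reference. Standard errors (SE) were derived from each gene's fold change and F statistic. Same-numbered replicates did not deviate together, so the numbers were not used as a pairing, which does not exclude samples prepared together.

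The members and the 44 gene lists were chosen with earlier results of these data known. Genes were named by rule: the 12 called genes with the smallest p in each direction, up to 4 called members of each list in each direction or 2 members past an adjusted p of 0.05 where none was called, 17 fixed genes of interest, all but ID2 named in the study, the 10 most abundant genes at the floor in the other clone, and up to 5 called genes in each described window. PKP2, OCLN, F11R, KRT8, TCF4, TWIST1, SNAI3, ERBB3, SYK, CAMK2B, PARD6A, SLC27A2, PLXDC2, TM7SF2 and PTMAP4 were named after their values were seen. Some results that the rule covers are not reported here. Promoter windows and the E-box count were also chosen after the data were seen, with windows cut from GRCh38 at the GENCODE 44 canonical transcript. The fits were tested on simulated data. With 3 libraries a group, precision is limited by replicate spread, and depth limits genes near the floor of 3 counts.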

Additional observations from a re-analysis of the deposited data

Results flagged for a closer look

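The clones lay on opposite sides of WT for 19 of the 198 called genes, with every library of one clone above and every library of the other below all 3 WT libraries. CS16 was the higher clone in 14 of them and CS19 in 5. The difference between the clones was tested in each (edgeR quasi-likelihood adjusted p from 2.38e-10 for DPYSL3 to 0.000122 for GALNT14 over the 14 described here, each with a WT mean of at least 1 CPM), while neither clone's distance from WT was. Each value is a log2 fold change of CS16 over CS19 unless stated. Such genes were counted among called genes only, with no share taken over all genes tested. The fold cut-off itself sets the clones far apart and leaves room for WT between them, so the count is a description.

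In 10 of these 14 genes CS16 was the higher clone. They were PLXDC2 at 6.05, HCLS1 at 5.78, SNAI2 at 4.36, DPYSL3 at 3.59, LUM at 3.31, SLC26A7 at 2.59, VSNL1 at 2.40 and GALNT14 at 2.32, with SPOCK3 at least 31.3-fold and ZNF804A at least 15.8-fold higher against the floor of 3 counts in each CS19 library. PLXDC2, a plexin-domain receptor, stood at 5.87, 7.55 and 6.92 CPM in CS16, at 0.145, 0 and 0.137 CPM in CS19 and at 2.37, 1.87 and 1.94 CPM in WT. In the other 4, CS19 was the higher clone, with CLDN1 at -4.14, CAMK2B at -3.92, CLIC5 at -3.66 and TM7SF2 at -2.02. TM7SF2, a sterol reductase of cholesterol synthesis, read 7.98, 6.60 and 8.59 CPM in CS16, 32.5, 34.5 and 27.2 CPM in CS19 and 10.7, 18.3 and 11.3 CPM in WT, and its log2 fold change lay between -1.99 and -1.91 without CS16 replicate 2, CS19 replicate 1 or CS19 replicate 2. WT replicate 2, which had the highest mitochondrial share, was the highest WT library for TM7SF2 and CAMK2B.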

How the results depend on the processing

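The 198 called genes became 352 (195 higher in CS16, 157 higher in CS19) without a filter on low counts and 833 (325 and 508) with a log2 fold change of at least 1. A test against a log2 fold change of 1 (glmTreat) called 266 genes, 124 higher in CS16 and 142 higher in CS19, so the larger share turned to CS19. DESeq2 called 215, of which 191 were among the 198. Leaving out 1 library gave 224 to 258 called genes (121 to 154 higher in CS16, 90 to 123 higher in CS19) and 3460 to 5146 genes past an adjusted p of 0.05. Without the fold cut-off, 4814 genes became 654 when WT shared the fit. SNAI1 kept its log2 fold change of -0.92 but no longer passed an adjusted p of 0.05 in that fit (adjusted p = 0.271) or in glmTreat (adjusted p = 1), and ranged from -1.04 to -0.72 with 1 library left out, while SNAI2 ranged from 4.16 to 4.68. Genes at the floor in CS19 went from 14 to 1 with 0 counts required and to 36 with 0.5 CPM in the high clone.

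With replicate number as a block, 201 genes were called and 3179 passed an adjusted p of 0.05 in place of 4814, with 5 glycolysis and hypoxia genes higher in CS16 in place of 12. The correlations of same-numbered deviations were -0.134, -0.48 and -0.29, no replicate number correlated best with itself, and the numbers were not used as a pairing. The deviations were taken from each clone's own mean, so these correlations depend on each other and cannot show how the samples were prepared.

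The share of promoters with CAGGTG in genes higher in CS19 was 55.9% with the RefSeq promoter table, which holds 67.7% of the genes tested. With those promoters it was 5.13% in genes higher in CS16 and 18.2% over all genes tested. With the windows used above and 1 library left out, it was 32.0 to 41.6% for genes higher in CS19 and 7.79 to 10.7% for genes higher in CS16. Of 1987 values for 142 named genes, 4 changed sign, ZEB1 to -0.01 without CS16 replicate 1 (range -0.01 to 0.15 with 1 library left out) and ALDH1A1 to 0.05 without CS16 replicate 3, 0.02 without CS19 replicate 1 and 0.12 without CS19 replicate 2 (range -0.19 to 0.12), and 129 were no longer past the threshold. The causes were not tested.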
